A study of Mus musculus with 2 samples.

Results

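Transcripts of the NuRD corepressor complex were measured in Tregs (regulatory T cells, which carry the transcription factor Foxp3 and restrain immune responses) with and without Bcl11b, a zinc finger protein that controls T cell genes. The members were 10 genes: the ATPase genes Chd3 and Chd4, the scaffold genes Mta1, Mta2 and Mta3, the deacetylase genes Hdac1 and Hdac2, the methyl-CpG-binding-domain genes Mbd2 and Mbd3, and the zinc finger gene Gatad2a. Each probe that carried the name of a member in the scanner files was read on its own. This gave 10 of 27975 genes and 20 of the 41174 distinct gene probes of the array, with at least 1 probe for each member. Probes of 1 gene read the same transcript and are not independent.

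NuRD joins a chromatin remodelling ATPase (Chd3 or Chd4) and a histone deacetylase (Hdac1 or Hdac2) in 1 assembly, held by Mta scaffolds, with an Mbd protein and a Gatad2 protein linking the parts. Mbd2 binds methylated CpG, while Mbd3 lacks strong affinity for it, and the complex holds either protein. Bcl11b is a known partner of NuRD, as are Ikaros family factors in lymphocytes, and Chd4 is known for roles in T cell development. The array reads transcripts only, so neither the protein nor the assembly of the complex was measured.

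Each of the 2 arrays set a deficient pool, labelled in Cy5, against a wild-type pool, labelled in Cy3, all of C57BL\6 background. On the Cd4Cre array the wild-type pool held Foxp3-GFP+ Tregs sorted from 3 mice, and the deficient pool held Foxp3-GFP+ Tregs of Bcl11bF/F/Cd4Cre/Foxp3-GFP+ mice. On the Foxp3Cre array the wild-type pool held Tregs from 3 mice and the deficient pool held Tregs of Bcl11bF/F/Foxp3Cre mice. Cd4Cre acts in developing T cells, in all descendants of cells that once expressed CD4, whereas Foxp3Cre acts in cells that already express Foxp3. The labels give neither the ages nor the number of mice in the deficient pools, and do not say whether wild-type mice carried a Cre or a floxed allele. With 1 array per Cre system and the same dye orientation on both, no array has a replicate, and dye and genotype cannot be told apart. In pooled cells, fewer cells of a type and less RNA per cell cannot be told apart either.

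The targeted gene was dimmer in each deficient pool. The brighter Bcl11b probe had log2 signals of 15.55 (wild type) and 13.09 (deficient) on the Cd4Cre array and of 14.95 and 13.14 on the Foxp3Cre array, and the other probe read -1.19 and -0.32. Whether these probes lie in the floxed region is not stated in the labels. Of 9 Treg marker genes, all 9 were detected on both arrays. Foxp3 itself had a log2 ratio (deficient over wild type) of -3.57 with Cd4Cre and -0.20 with Foxp3Cre, with signals of 12.50 and 8.93 in the Cd4Cre wild-type and deficient pools, both well above background. A probe counted as detected where either channel was well above background in the scanner software, which held for 23645 and 22387 probes. No spot was saturated. Probes printed more than once on an array had log2 ratios with a median SD of 0.056 (Cd4Cre) and 0.071 (Foxp3Cre).

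The probes printed here read the 4 genes whose ratios stood farthest from 0: Chd3, Chd4, Mbd3 and Hdac2. They are given as deposited, on mm9, 5′ to 3′, with no base singled out. Each is 60 bases long with at least 1 forward reading frame free of stop codons. The coordinates of Chd3 A_52_P146485 span 608 bases of genome, those of the Chd4 probes A_52_P298043 and A_52_P58281 span 3262 and 5170 bases, and those of Hdac2 A_51_P116007 span 135. These 4 probes are shorter than their spans and so match separate stretches of the genome. No gene model of mm9 was used, so exon and UTR are not stated for any probe.
Chd3 A_52_P146485, chr11:69177640-69178247, minus strand: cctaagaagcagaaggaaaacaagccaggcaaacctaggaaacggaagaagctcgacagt
Chd3 A_51_P416126, chr11:69172636-69172695, minus strand: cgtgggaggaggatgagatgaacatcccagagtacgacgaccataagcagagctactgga
Chd3 A_52_P14810, chr11:69160614-69160673, minus strand: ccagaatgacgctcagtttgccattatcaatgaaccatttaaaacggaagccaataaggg
Chd4 A_52_P298043, chr6:125047264-125050525, plus strand: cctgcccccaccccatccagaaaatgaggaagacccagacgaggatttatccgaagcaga
Chd4 A_51_P454280, chr6:125064080-125064139, plus strand: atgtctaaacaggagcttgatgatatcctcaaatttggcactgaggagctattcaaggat
Chd4 A_52_P58281, chr6:125073647-125078816, plus strand: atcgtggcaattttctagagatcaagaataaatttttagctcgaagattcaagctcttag
Mbd3 A_51_P398004, chr10:79857864-79857923, minus strand: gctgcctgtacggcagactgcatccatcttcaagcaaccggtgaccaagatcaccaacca
Hdac2 A_51_P116007, chr10:36713455-36713589, plus strand: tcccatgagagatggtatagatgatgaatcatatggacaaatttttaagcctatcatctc

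The ATPase gene Chd3 stood lowest among the members on the Cd4Cre array. Probe A_51_P396284 (chromosome 11 from 69156931 to 69156990) had a normalised log2 signal of 15.65 in the wild-type pool and 12.77 in the deficient pool, a log2 ratio of -2.88 with a scanner software error of 0.33 (its estimate of noise within 1 array), or 7.37-fold lower. In the Foxp3Cre system the same probe had signals of 13.92 and 12.61, a log2 ratio of -1.31 ± 0.23 (software error), or 2.48-fold lower. With median centring, which leaves out loess (an intensity-dependent correction within each array), it read -2.23 with Cd4Cre and -0.77 with Foxp3Cre, no longer 2-fold lower in the second. The wild-type pool was the brighter one in both Cre systems, by more than the software error.

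The other Chd3 probes were lower too, by different amounts. A_52_P146485, printed above, had signals of 16.10 and 13.83 on the Cd4Cre array (log2 ratio -2.28) and of 14.44 and 13.48 on the Foxp3Cre array (-0.96). A_51_P416126 had 13.43 and 12.31 (-1.11), then 11.48 and 10.87 (-0.61). A_52_P14810 had 10.35 and 9.45 (-0.90), then 9.02 and 8.43 (-0.59). All 4 probes lay below 0 on both arrays under all 9 processing settings that kept probes separate, but median centring brought A_52_P146485 to -1.45 and -0.28 and A_51_P416126 to -0.77 and -0.41. The main reading, the changes of the filter on dim probes and outlier spots kept gave identical ratios, so the 9 settings are not 9 separate readings. The sizes did not follow the order along the gene. On the minus strand the probe nearest the 3′ end, A_51_P396284, read lowest, the next, A_52_P14810, read highest, and the one nearest the 5′ end, A_52_P146485, read second lowest on the Cd4Cre array. The range over the 4 Chd3 probes, from -2.88 to -0.90, was wider than in most genes. The median range over 5411 genes with at least 2 detected probes was 0.49 on this array, and its 90th percentile 1.37. These genes were not matched to Chd3 for number of probes, and a range tends to widen with that number. A further probe, deposited under an accession in place of a symbol and matched to Chd3 by a RefSeq synonym, read -0.97 and -0.18.

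The Chd3 signal also differed between the wild-type pools. It was higher in the Cd4Cre wild-type pool than in the Foxp3Cre one on all 4 probes, by 1.33 to 1.94 on the log2 scale. The deficient pools differed by 0.16 on A_51_P396284 and 0.35 on A_52_P146485, but by 1.45 and 1.02 on the other probes. Over 19 member probes the median difference between the wild-type pools was 0.39, against -0.06 over all 21259 probes detected on both arrays, and between the deficient pools 0.76 against 0.13. Slide, scan and software version differ between the arrays, and their part in these differences was not tested.

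Chd4, which encodes the other NuRD ATPase, showed the opposite order of sizes. With Foxp3Cre its probe A_52_P58281 had log2 signals of 10.13 in the wild-type and 8.35 in the deficient pool (-1.78 ± 0.30, software error; 3.43-fold lower). A_51_P454280 had 11.06 and 10.03 (-1.03), and A_52_P298043 had 14.22 and 13.17 (2.07-fold lower). On the Cd4Cre array the same 3 probes read -0.95, -0.52 and -0.74. All 3 were thus at least 2-fold lower on the Foxp3Cre array and none on the Cd4Cre array, though A_52_P58281 passed 2-fold on the Cd4Cre array too with the scanner software's ratio (-1.21) and with median centring (-1.03). Under the 9 settings, several of which repeat the main ratio, A_52_P58281 stayed past 2-fold on the Foxp3Cre array in 9. A_51_P454280 did so in 6 and A_52_P298043 in 5, the latter at -0.93 with the scanner software's ratio. With median centring A_52_P298043 read -0.10 with Cd4Cre and -0.43 with Foxp3Cre.

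Some Chd3 and Chd4 probes differed between the arrays by more than their combined software error. The Foxp3Cre ratio of A_51_P396284 (Chd3) was higher than the Cd4Cre ratio by 1.57, with a combined software error of 0.41, while for A_52_P58281 (Chd4) the difference was -0.83 with one of 0.38. The software error covers 1 hybridisation and no biological spread, and with 1 array per Cre system the difference itself could not be tested.

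**Figure D1:**
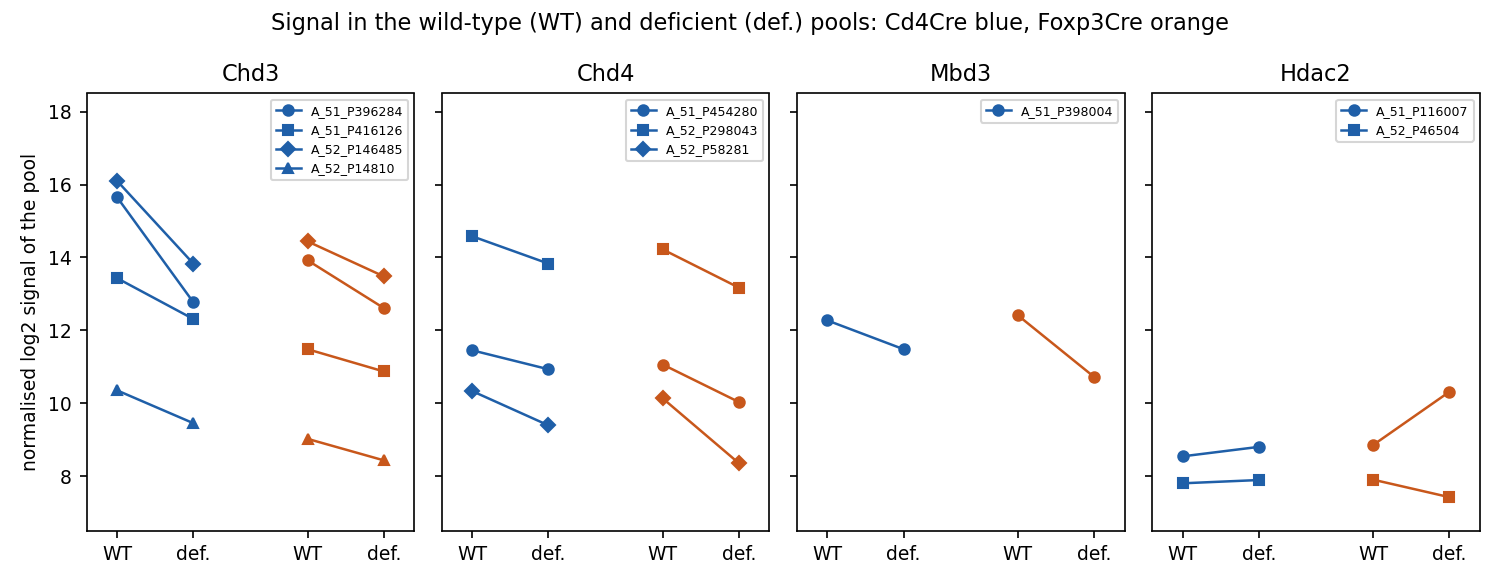
Normalised log2 signal (vertical axis) of each probe of Chd3, Chd4, Mbd3 and Hdac2 in the wild-type and deficient pools, joined by lines within an array, Cd4Cre in blue and Foxp3Cre in orange. Signals of different probes are not comparable; the slopes are, and Hdac2 A_51_P116007 runs up from 8.85 to 10.31 on the Foxp3Cre array while every Chd3, Chd4 and Mbd3 line runs down.

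Among the Mta scaffolds, Mta1 was read by 1 probe, A_51_P423030, with signals of 13.54 and 12.67 on the Cd4Cre array (-0.87) and of 12.64 and 11.88 on the Foxp3Cre array (-0.76). Both ratios were below 0 by more than the software errors of 0.22 and 0.21, and became -0.48 and -0.39 with median centring. Mta2 A_51_P164207 had 14.46 and 13.92 on the Cd4Cre array (-0.54) and 14.33 and 13.30 on the Foxp3Cre array (-1.03), 2.04-fold lower in the second. Its ratios under median centring became 0.10 and -0.38. The Foxp3Cre ratio passed 2-fold in 5 of the 9 settings, several of which repeat the main ratio, and was -0.95 with the scanner software's ratio. The dimmer Mta2 probe, A_52_P43972, lies close by on chromosome 19 (from 9026422 to 9026481) and read -0.04 on the Cd4Cre array. Its Foxp3Cre spot was marked as an outlier by the scanner software and left out; kept, it read 0.47, so the Mta2 probes disagreed there. Mta3, a scaffold known from B cells, was close to even on the Foxp3Cre array, with A_51_P284318 at 0.15 and A_52_P119393 at -0.18, the second of which turned to 0.28 with median centring. On the Cd4Cre array these probes read -0.67 and -0.50.

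The deacetylase genes Hdac1 and Hdac2, which remove acetyl groups from histone tails, did not share 1 direction. Hdac1 had signals of 14.79 and 14.67 on the Cd4Cre array and of 14.65 and 14.14 on the Foxp3Cre array, ratios of -0.12 and -0.50 that turned to 0.66 and 0.27 with median centring, so no direction is given for Hdac1. Hdac2 A_51_P116007, printed above, had 8.54 and 8.80 on the Cd4Cre array (0.27 ± 0.25, software error). In the Foxp3Cre system it had 8.85 and 10.31, a log2 ratio of 1.46 ± 0.28 (2.75-fold higher), above 99.6% of the detected probes. It was at least 2-fold higher there under all 9 settings, from 1.33 to 1.87. The other Hdac2 probe, A_52_P46504, did not follow. It comes from a separate clone sequence, lies downstream on chromosome 10 (from 36715306 to 36715365), and was not well above background in either deficient pool. Its measured ratios were 0.10 and -0.48, with software errors of 0.45 and 0.69, and no bound on its fold can be given. The higher Hdac2 value therefore rests on 1 probe and 1 array.

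Mbd3, the subunit that marks the Mbd3 form of the complex, was read by 1 probe, A_51_P398004, with signals of 12.27 and 11.48 on the Cd4Cre array (-0.79 ± 0.22, software error). With Foxp3Cre it had 12.41 and 10.72, a ratio of -1.69 ± 0.25, or 3.22-fold lower, and stayed at least 2-fold lower under all 9 settings (from -1.69 to -1.43). The wild-type signals were close to each other, 0.14 apart, while the deficient pools were 0.76 apart. Mbd2 A_52_P347287 had 13.95 and 13.67 on the Cd4Cre array, a ratio of -0.28 that turned to 0.27 with median centring, and 12.40 and 11.44 on the Foxp3Cre array (-0.96). The other Mbd2 probe, A_51_P256337, had 9.41 and 9.27 on the Cd4Cre array (-0.13). In the Foxp3Cre deficient pool it was not well above background, which gives only a bound, 1.33-fold lower from the measured signals. The bound is not firm. The measured ratio there was -0.44 with a software error of 0.40, and -0.30 without background subtraction.

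Gatad2a, which bridges the Mbd protein to the ATPase, was read by a bright and a dim probe, both below 0 on both arrays. A_52_P580458 had 13.86 and 13.22 on the Cd4Cre array (-0.64) and 12.70 and 11.91 on the Foxp3Cre array (-0.79). A_52_P594627 had 9.82 and 9.16 with Cd4Cre (-0.66). In the Foxp3Cre system, where its deficient pool was not well above background, the bound from the measured signals was 1.38-fold lower. That bound is not firm either. The measured ratio there was -0.53 with a software error of 0.42, and -0.32 with the GC trend of the probes removed. Median centring set the probes apart with Cd4Cre, at -0.16 (A_52_P580458) and -0.77 (A_52_P594627), and brought the first to -0.42 with Foxp3Cre. Such a bound divides the wild-type signal by the dimmest signal that still counted as well above background, or by the dim probe's own signal where that was higher, and is open to dye bias.

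**Figure D2:**
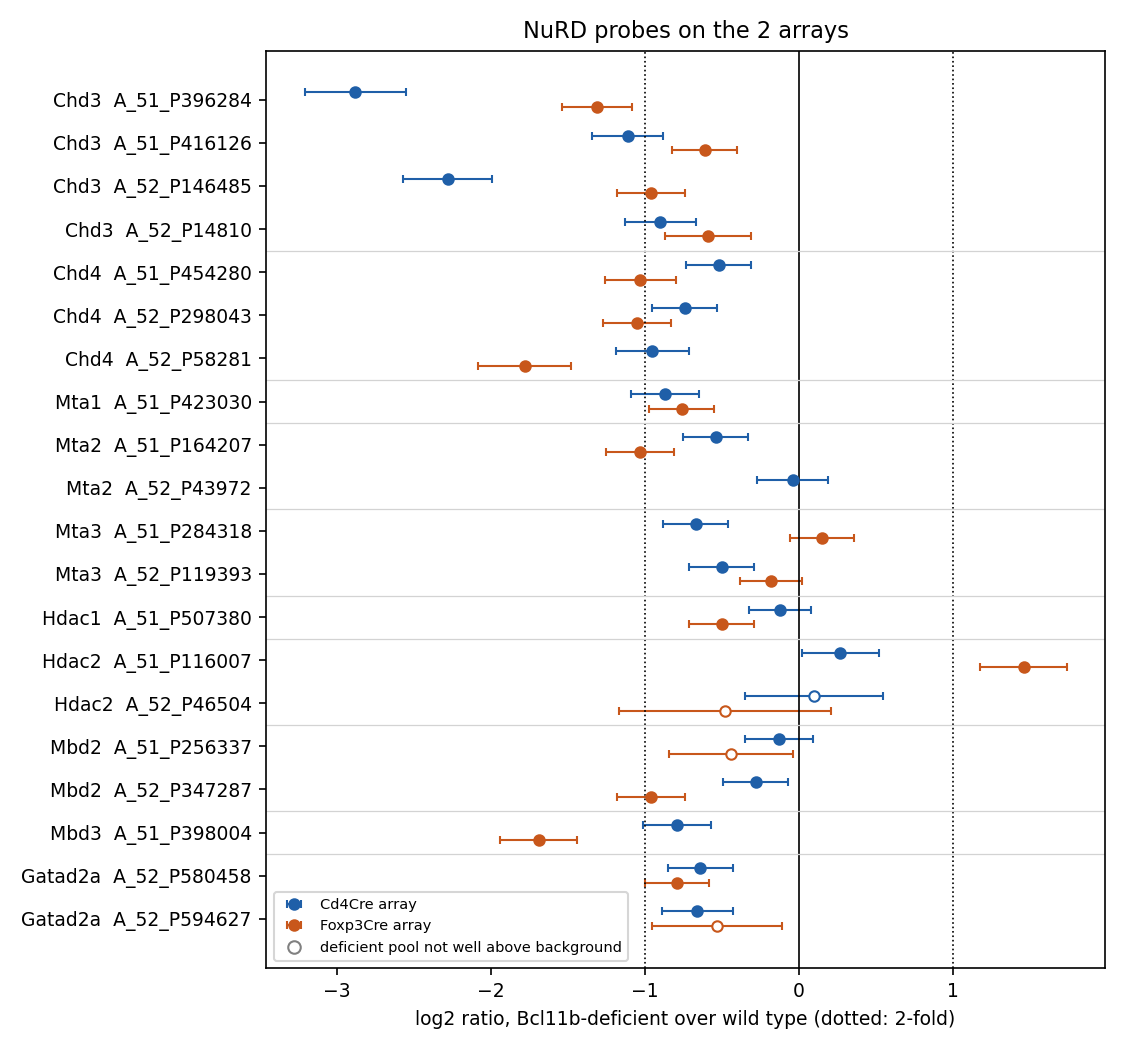
Log2 ratio of deficient over wild type (horizontal axis) for each of the 20 member probes, Cd4Cre in blue and Foxp3Cre in orange, with bars of ± the scanner software's error for 1 array and dotted lines at 2-fold. Chd3 stands out to the left on the Cd4Cre array (down to -2.88), Chd4 A_52_P58281 and Mbd3 on the Foxp3Cre array (-1.78 and -1.69), and Hdac2 A_51_P116007 to the right on the Foxp3Cre array (1.46).

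Counted together, 3 of 20 detected member probes, all of Chd3, were at least 2-fold lower on the Cd4Cre array, where 9.99% of all detected probes were. None was at least 2-fold higher, against 10.4% of all. With median centring the 3 lower probes were 2 of Chd3 and A_52_P58281 of Chd4, against 8.47% of all. With Foxp3Cre 6 of 19 member probes were at least 2-fold lower (1 of Chd3, 3 of Chd4, 1 of Mta2 and 1 of Mbd3), against 11.7% of all detected probes, and 1 was at least 2-fold higher, against 3.02%. With median centring 2 lower probes remained, A_52_P58281 of Chd4 and the Mbd3 probe, against 7.82% of all. Read as genes through the brightest probe of each, the counts were 1 of 10 on the Cd4Cre array (10.6% of all genes) and 3 of 10 on the Foxp3Cre array (11.5%), with 0 (11.4%) and 1 (2.94%) at least 2-fold higher. The counts past 2-fold on the Cd4Cre array were thus near the level of all genes. The 3 genes lower on the Foxp3Cre array became 1 of 10 with median centring, with the scanner software's ratio and with the GC trend of the probes removed. Only A_51_P396284 of Chd3 was at least 2-fold lower on both arrays, 1 of 19, where 4.33% of all probes were, while none of the 19 passed 2-fold upwards on both (1.23% of all). With median centring the probe at least 2-fold lower on both arrays was A_52_P58281 of Chd4 in its place, against 2.63% of all.

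By sign rather than size, most member probes lay below 0. On the Cd4Cre array 18 of 20 member probes were below 0, against 52.9% of all detected probes, and 15 were below 0 by more than their software error, against 35.5%. With Foxp3Cre 17 of 19 were below 0, against 54.8%, and 15 by more than the error, against 39.2%. Below 0 on both arrays were 16 of 19, against 37.7%, and 2 of 19 had opposite signs on the arrays, against 32.2%. The median log2 ratio over member probes was -0.65 with Cd4Cre and -0.76 with Foxp3Cre, where all detected probes had medians of -0.05 and -0.09. Median centring brought the member medians to -0.31 and -0.43 and those of all probes to 0.02 and 0.11, so the members lay 0.33 and 0.54 below all probes by that measure. It left 16 of 20 member probes below 0 with Cd4Cre (49.2% of all probes), 15 of 19 with Foxp3Cre (45.0%) and 13 of 19 on both arrays (31.7%). Read as genes through the brightest probe of each, 9 of 10 and 8 of 10 members were below 0, against 52.8% and 54.6% of all genes. Median centring left 6 of 10 and 7 of 10. No share of all genes was taken there, but 49.2% and 45.0% of all probes were below 0. The medians over the member genes, -0.65 and -0.88, became -0.13 and -0.39.

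**Figure D3:**
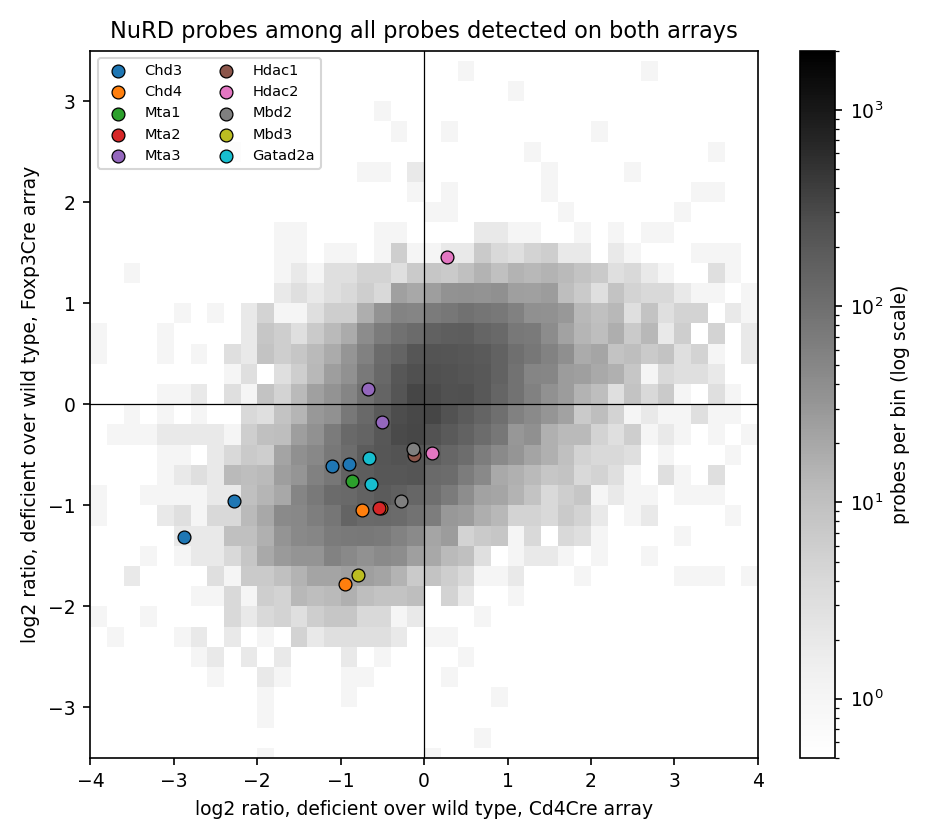
Log2 ratio on the Cd4Cre array (horizontal axis) against the Foxp3Cre array (vertical axis); grey squares count all 21259 probes detected on both arrays on a log scale, and coloured points are the 19 member probes measured on both. Of these, 16 lie below 0 on both axes, with Chd3 farthest left and Hdac2 A_51_P116007 alone at the top.

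The limma fit tested the mean of both arrays against 0 over all 21259 probes, with 1 residual degree of freedom, and so took any gap between the Cre systems for error. On simulated data it found few 2-fold changes and made more false calls than its threshold allows, so neither a call near the threshold nor a missing call is firm. It called 1 of 19 member probes at an adjusted p under 0.05 (Benjamini-Hochberg over all probes), where it called 1.48% of all probes. This was Chd3 A_51_P396284, which fell on both arrays, with a mean log2 ratio of -2.10, a standard error of 0.41 and a limma adjusted p of 0.0459. The call did not hold widely: over the 9 settings its adjusted p ran from 0.00585 to 0.228, and 5 of them did not call it. Next came A_52_P146485 of Chd3 (mean -1.62, limma adjusted p = 0.0534), A_52_P58281 of Chd4 (-1.36, 0.0626) and Mbd3 (-1.24, 0.0779). Hdac2 A_51_P116007 had a mean of 0.86 with a limma adjusted p of 0.198. Mbd3 was called in 1 of the 9 settings and A_52_P58281 in 2. At an unadjusted p under 0.05, 9 of 19 member probes had a mean below 0, against 14.8% of all probes.

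Other genes of NuRD and of related complexes were read from the brightest probe of each gene. The remaining NuRD subunits lay mostly at or above 0. Of 5 detected on both arrays, 1 was below 0 with Cd4Cre and 2 with Foxp3Cre, with medians of 0.34 and 0.04; limma called 0 of 5, and 1 at an unadjusted p under 0.05. Median centring raised these medians to 1.12 and 0.96. Gatad2b, the paralogue of Gatad2a, read -0.95 and -0.70. Its probes ranged from -0.95 to 0.47 on the Cd4Cre array and from -1.16 to -0.49 on the Foxp3Cre array. Cdk2ap1, a small accessory subunit, read 0.97 and 0.04, the second turning to -0.07 with the GC trend of the probes removed.

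Genes of other chromatin complexes mostly lay below 0 as well, less so with median centring. Of 21 BAF remodeller genes detected on the Cd4Cre array, 19 were below 0, and of 20 on the Foxp3Cre array, 19, with medians of -0.53 and -0.65; limma called 0 of 20 tested and 9 at an unadjusted p under 0.05, all lower. Median centring left 12 of 21 and 14 of 20 BAF genes below 0, with medians of -0.16 and -0.38. With loess, all genes had 52.8% and 54.6% below 0 by their brightest probe, with medians of -0.05 and -0.08. At least 2-fold lower on both arrays were Arid2 (-1.23 and -1.24) and Pbrm1 (-1.01 and -1.13), subunits of the polybromo form. The highest Arid2 probe, however, read -0.75 and -0.45, and the highest Pbrm1 probe -0.02 and 0.14. Neither gene was 2-fold lower with median centring, where Arid2 read -0.67 and -0.71 and Pbrm1 -0.43 and -0.54. The CoREST and SIN3 list had 12 of 16 below 0 on each array, medians of -0.39 and -0.43; limma called 0 of 16, and 4 lower and 1 higher at an unadjusted p under 0.05. With median centring 8 and 9 of these 16 were below 0. Phf21a, a CoREST reader subunit, read -1.06 and -1.60, though its highest probe read -0.10 with Foxp3Cre, and median centring gave -0.62 and -1.14.

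Among other HDACs and sirtuins, 9 of 13 and 9 of 12 were below 0, with 7 of 13 and 8 of 12 so with median centring, and limma called 1 of 12: Hdac7, a class IIa deacetylase of T cells, at -2.27 and -1.40 (limma adjusted p = 0.0459). Of the other CHD remodellers, 4 of 7 and 7 of 7 were below 0, and limma called 0 of 7 (3 at an unadjusted p under 0.05). Chd7 read -1.19 and -1.38 and Chd8 -1.41 and -1.33. The highest Chd7 probe read 0.52 on the Foxp3Cre array, and the highest Chd8 probe -0.63 and -0.83 on the 2 arrays. Median centring took both genes below 2-fold, with Chd7 at -0.45 and -0.81 and Chd8 at -0.65 and -0.76. Of the other methyl-CpG binding proteins, 3 of 6 and 5 of 6 were below 0, limma called 0 of 6 (2 at an unadjusted p under 0.05), and Mbd1 read -1.36 and -1.03, though its highest probe read -0.10 and 0.62, and median centring gave -0.78 and -0.59.

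Factors known to recruit NuRD included the deleted gene itself. Of 15, 10 were below 0 with Cd4Cre and 11 with Foxp3Cre, with medians of -0.57 and -0.47. The limma fit called 2 of 15 (5 at an unadjusted p under 0.05), Bcl11b (-2.46 and -1.82, limma adjusted p = 0.0323) and Ikzf1, the Ikaros gene, which recruits Chd4 in lymphocytes (-1.89 and -2.95, limma adjusted p = 0.0303). Zfpm1, which encodes the NuRD-binding cofactor FOG1, read -1.27 and -1.46. With median centring 10 and 9 of the 15 were below 0. At least 2-fold lower on both arrays were 3 of these 15 genes (Bcl11b, Ikzf1 and Zfpm1), against 4.56% of all genes. Bcl11b is the deleted gene, so its place among the 3, and among the 2 limma calls, follows from the design. With median centring Zfpm1 was not past 2-fold on both arrays (-0.45 and -0.79), while Bcl11b (-1.78 and -1.12) and Ikzf1 (-1.27 and -2.59) were. In the limma fit 5001 probes had an unadjusted p under 0.05 and 315 an adjusted one; the fit called 0 probes in all under 5 of the 8 other settings of background, normalization, filter, outliers and GC content.

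**Figure D4:**
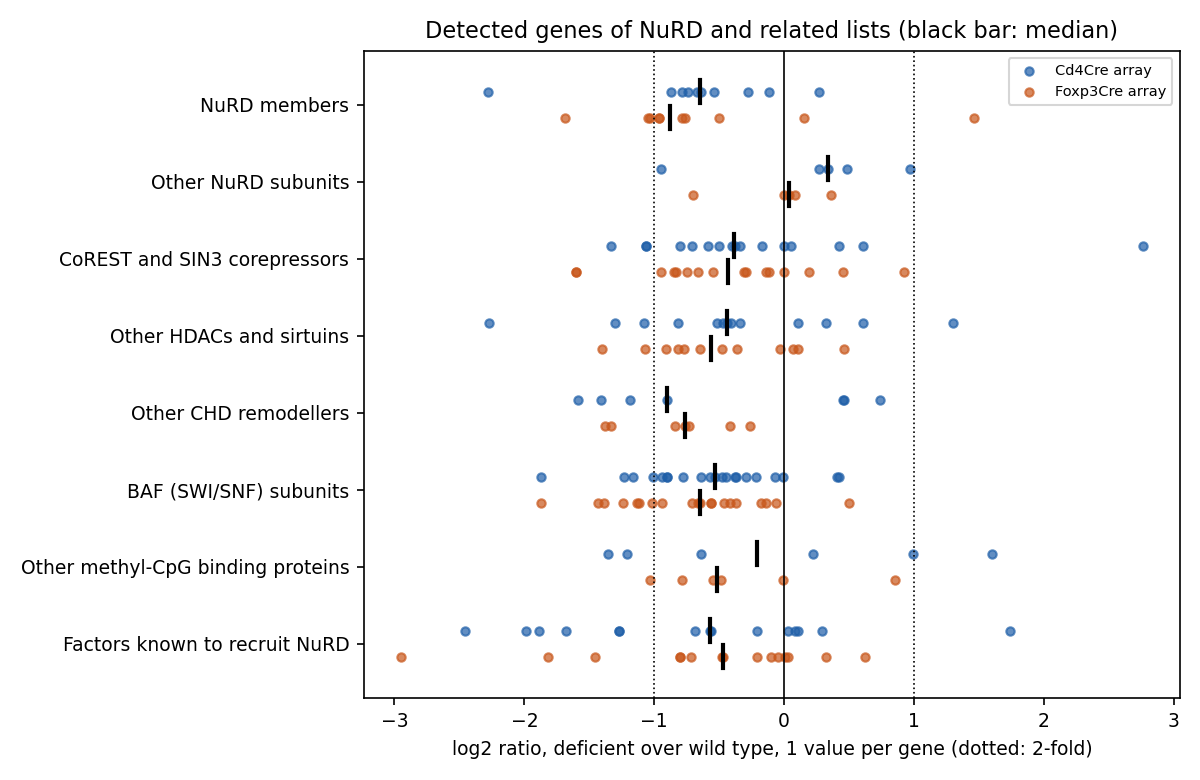
Log2 ratio of deficient over wild type for every detected gene of each list, 1 point per gene from its brightest probe, Cd4Cre in blue and Foxp3Cre in orange, with black bars at the medians. The NuRD medians of -0.65 and -0.88 lie beside those of the CHD (-0.90 and -0.76) and BAF (-0.53 and -0.65) lists, and the remaining NuRD subunits lie higher (0.34 and 0.04).

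Markers of other cell states and cell types also differed on these arrays. On the Cd4Cre array 6 of 9 Treg markers were at least 2-fold lower (from -4.28 to -0.44), 8 of 8 CD8 T and NK markers at least 2-fold higher (from 1.19 to 6.57), 6 of 8 myeloid markers at least 2-fold higher (from -1.50 to 7.02), and 8 of 12 cell cycle markers at least 2-fold higher (from 0.31 to 2.79). B cell markers ran from 0.64 to 2.03 there (5 of 6 detected, 2 at least 2-fold higher). With Foxp3Cre 6 of 6 salivary gland markers were at least 2-fold lower (from -4.58 to -3.20), 4 of 8 myeloid markers at least 2-fold higher (from -1.20 to 2.33), and 0 of 9 Treg markers at least 2-fold lower. Of 12 cell cycle markers 1 was at least 2-fold higher and 1 lower there. With median centring 6 were at least 2-fold higher, where 12.1% of all probes were, against 3.02% with loess. In the main reading CD8 T and NK markers had a median of 0.34 on the Foxp3Cre array (1 of 8 at least 2-fold higher). B cell markers ran from -0.91 to 0.20 there, and erythroid and platelet markers from 0.09 to 2.51 (3 detected). At least 2-fold higher on both arrays were the neutrophil genes S100a8 (6.86 and 2.33), S100a9 (7.02 and 2.25), Mpo (3.67 and 1.35) and Ngp (4.81 and 1.39), the NK receptor gene Ncr1 (1.39 with Cd4Cre), the mitotic checkpoint gene Bub1 (1.83 and 1.33) and the platelet factor gene Pf4 (1.38 and 2.51). The macrophage receptor gene Csf1r was at least 2-fold lower on both (-1.50 and -1.20). On the Foxp3Cre array Ncr1 stood at the 2-fold line, and fell short of it with median centring (0.97) and with the GC trend removed (0.94). Csf1r read -0.86 there with median centring. Gpr83 of the Treg list read -4.28 and -0.94, Ms4a1 of the B cell list 2.03 and 0.20, Cd79b 1.23 and -0.14, and the salivary genes Amy1 and Bpifa2 0.27 and 1.03 with Cd4Cre and -3.92 and -4.58 with Foxp3Cre. The part of these shifts in the NuRD values was not tested.

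Promoters of 6 members matched a RefSeq table of GRCm38.p6 by symbol: Chd4, Mta1, Mta2, Hdac2, Mbd3 and Gatad2a. Chd3, Mta3, Hdac1 and Mbd2 had no match. In the window from 250 bases before to 50 after the start, the 8 promoters of these genes had a median GC content of 66.2% and a median of 27.5 CpG, against 52.7% and 7 over all 32851 promoters. The GC box letters GGGCGG, searched on both strands, were in 8 of 8, against 35.7% of all. All 32851 promoters were counted whether or not their genes were detected here, and no share over detected genes alone was taken. The promoter of Hdac2, the member with the higher value, held 36 CpG. Among members with lower values, that of Mta1 held 50, that of Mta2 held 30 and that of Mbd3 held 22. A link between CpG count and ratio was not tested.

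**Figure D5:**
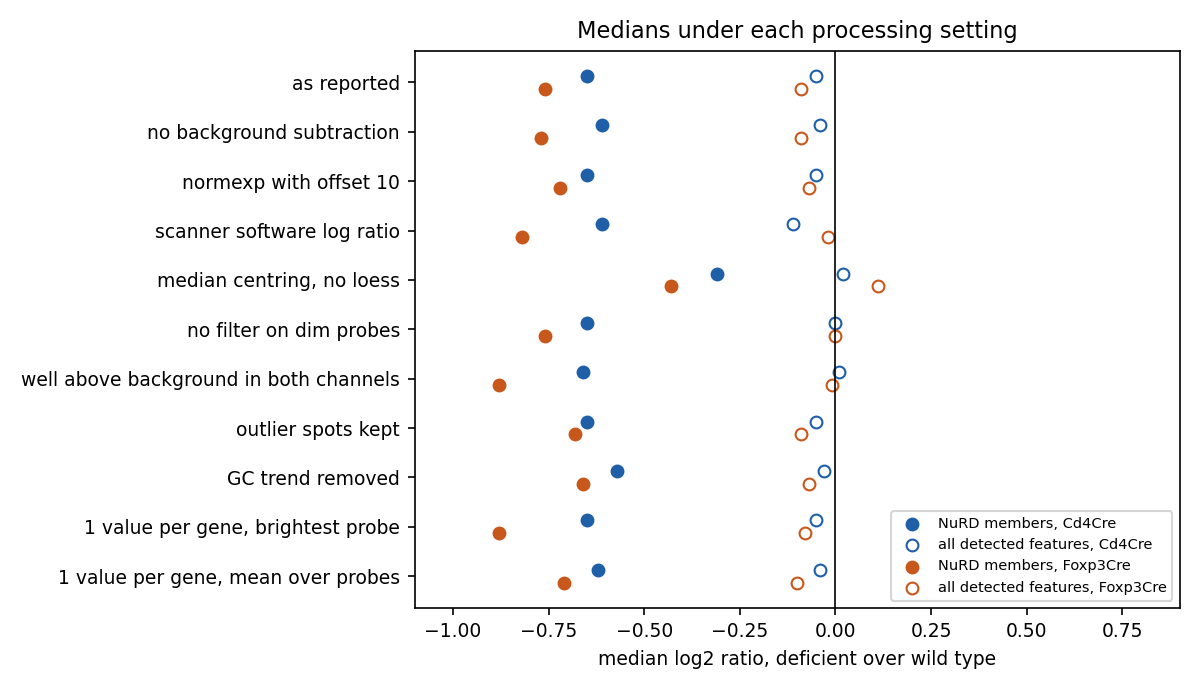
Median log2 ratio of the member probes or genes (filled) and of all detected features (open) under each processing setting, Cd4Cre in blue and Foxp3Cre in orange. The member medians run from -0.66 to -0.31 on the Cd4Cre array and from -0.88 to -0.43 on the Foxp3Cre array, below those of all features at each setting. The readings per gene in this figure keep loess.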

How the data were processed

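Gene expression was read on 2 two-colour Agilent mouse arrays of 60-base probes. The scanner software was Agilent Feature Extraction 10.5.1.1 (Cd4Cre) and 10.7.3.1 (Foxp3Cre), per the file headers, and 10.5.1 per the submitters' processing notes. The authors deposited each spot's mean and local background intensity, the log10 ratio (red over green) of the software, the error of that ratio, and a p-value for 1 array, which was not used. Their deposited value table equals that log10 ratio (largest difference 0).

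Here limma 3.58.1 (R 4.3.3) applied normexp (offset 50) to the intensities and then loess to the log2 ratios of each array, giving control spots weight 0. Outlier-marked spots, 137 on the Cd4Cre array and 155 on the other, were dropped, and repeated spots averaged. Pool signals are the channel values after Aquantile normalization. Software errors were converted to log2. All tests ran over all detected probes (lmFit and eBayes, intercept only, checked on simulated data). Probes of other genes were named by RefSeq accession (24844), symbol (6045) or synonym (1810); 8475 kept their deposited name. Every member probe is named, and from other lists the genes at least 2-fold the same way on both arrays or else the 2 with the largest mean. For some genes of the other lists whose probes disagree, the highest probe or the range is given. One list of related genes is not reported here. The members and lists were chosen with earlier results of these data known. Only 1 array per Cre system exists here, so its number limits the precision.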

Additional observations from a re-analysis of the deposited data

How the results depend on the processing

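The alternatives changed the background correction, the normalization, the filter on dim probes, outlier spots, probe GC content and the unit counted. Of 312 single-probe values compared, 282 moved by less than the software error, 30 by more, and 0 of those at least 2-fold changed sign. With median centring came 22 of the 30. The 282 include 39 for each change of the filter on dim probes, which leaves the ratio as it is and so could not move it. A further 39, with outlier spots kept, gave the main ratios again. The count of 3 probes at least 2-fold lower on the Cd4Cre array (9.99% of all probes) was 5 with the scanner software's ratio (19% of all). It was 1 when each gene gave 1 value, from its brightest probe (10.6% of all genes) or from the mean of its probes (8.92%), with 10 genes in place of 20 probes. The count of 6 on the Foxp3Cre array (11.7% of all probes) was 2 with median centring (7.82%). It was 3 with either reading per gene (11.5% and 10.3% of all genes). By brightest probe, the 3 genes became 1 with median centring, with the scanner software's ratio or with the GC trend removed. The medians of -0.65 and -0.76 became -0.31 and -0.43 with median centring; the cause was not tested. The single probe at least 2-fold lower on both arrays (4.33% of all probes) was another one with median centring (Chd4 A_52_P58281 in place of Chd3 A_51_P396284). The count became 2 without background subtraction (3.55% of all) and 2 with the scanner software's ratio (6.7%). It became 0 with either reading per gene (4.56% and 3.57% of all genes). With 1 array left out, the other array alone gave from 3 to 6 probes. The 1 limma call among members became 0 without background subtraction, with offset 10, with the scanner software's ratio, with no filter on dim probes, with the GC trend removed, with either reading per gene, and with ordinary residual variance. It became 2 with median centring, 3 with an intensity trend and 4 where signal was required in both channels. Below 2-fold, the ratios of Hdac1 on both arrays, of Mta2 A_51_P164207 and Mbd2 A_52_P347287 with Cd4Cre and of Mta3 A_52_P119393 with Foxp3Cre changed sign with median centring, and Hdac2 A_52_P46504 with Cd4Cre went from 0.10 to just below 0. Over all probes the 315 calls became 2180 with median centring, 1476 with signal in both channels and 916 with an intensity trend. No paired analysis was possible because each Cre system has 1 array, whose ratio already sets the deficient against the wild-type pool. Dim signals limit Hdac2 A_52_P46504, Mbd2 A_51_P256337 and Gatad2a A_52_P594627, whose deficient pools were not well above background on the Foxp3Cre array.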
